A study of Sus scrofa domesticus with 6 samples.

Results

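Gene expression in the small intestine of irradiated Göttingen minipigs that received pravastatin was compared with that of irradiated minipigs that received no drug. The comparison rests on 4 of the 6 RNA-sequencing libraries of the study, and its members are all 30352 rows of the deposited table that carry a gene symbol, of which 18197 had enough counts to be tested. All animals were Göttingen minipigs aged 6 months, a small pig breed (Sus scrofa domesticus), and intestine was taken on day 14. The 2 animals of the group called IR here had 15 Gy of cobalt-60 gamma rays to the abdomen. The 2 animals of the group called IR_Pra had the same exposure and pravastatin by mouth, given in divided doses of 40 mg per day over 2 weeks. Another 2 animals, the control group, were not irradiated, and their levels are given beside the comparison only as the level of unirradiated bowel. A group given the drug without irradiation was not analysed here. Libraries numbered 1 and 2 are different animals of a group, and the same number links no animals across groups. The sources used here do not say which segment of the small intestine was sampled, or whether the full wall or the mucosa was taken.

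Pravastatin is a statin, a class of drugs that block the mevalonate pathway and lower blood cholesterol. That pathway makes cholesterol and also the isoprenoid groups that anchor small GTPases to membranes. When cells run short of sterol, the transcription factor SREBP2 raises the genes of the pathway, and in endothelium statins are known to raise KLF2, NOS3 and thrombomodulin. In the irradiated small bowel the dividing crypt cells and the lymphocytes of the mucosa and follicles are the most sensitive cells, while muscle, nerve and connective tissue are more resistant, and the weeks after exposure bring epithelial repair, inflammation and deposition of matrix.

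In both treated animals the B cell genes PAX5, MS4A1 and CR1 lay between 18.1 and 101 CPM where each IR animal had less than 1. CD79A, another B cell gene, was at 21.3 and 49 CPM in the treated animals and 10.7 and 8.66 in IR. Of 23 T cell genes 16 were higher than in each IR animal. Of 20 macrophage genes 14 were lower than in each IR animal, as were 15 of 20 genes of enteric neurons and glia and 12 of 18 smooth muscle genes. Over all genes, 27.3% were higher and 26.6% lower in this sense. The IR animals lay on opposite sides of the treated ones in 17 of 24 lipid absorption and 8 of 18 cholesterol synthesis genes (IR 1 high, 9.52% of all genes) and in 15 of 28 cell cycle genes (IR 2 high, 10% of all genes). Of 18197 genes, 1 passed the test after adjustment, so these are levels and counts in 4 animals.

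The libraries held between 48600424 (IR_Pra 1) and 73975174 (IR 2) counts. Levels are in CPM (counts relative to the library total, with TMM factors), and pairs of values are in the order library 1, library 2. A log2 fold change is IR_Pra minus IR with its standard error. Markers of bowel were present in all 6 libraries, among them VIL1, the actin bundler of enterocyte microvilli, at 1645 and 1373 CPM in IR_Pra and 1308 and 122 in IR. Goblet cell mucin MUC2 was at 4265 and 4827 CPM in IR_Pra and 5739 and 483 in IR. Of 8 markers of pancreas, stomach and fat, PNLIP, GKN1 and ADIPOQ were at 0 in all 4 irradiated libraries, and the highest value of the others was 2.17 CPM (the pancreatic enzyme CPA1 in IR 1). The adipose and mesothelium list, some of whose genes other cells also express, had a median of -1.28, with 7 of 11 members lower without overlap. FABP4, a fatty acid carrier of fat cells, macrophages and endothelium, was at 3.61 and 3.94 CPM in IR_Pra and 7.74 and 33.2 in IR. The part of such tissue in the results was not tested. The IR libraries differed strongly from each other. Between IR 1 and IR 2, 4347 genes lay at least 2-fold apart, against 938 between the IR_Pra libraries and 1004 between the controls. Library IR 2 was low in epithelial RNA, with the 4 enterocyte markers summing to 178 CPM against 2310.4 in IR 1 and 2300.4 and 2016 in IR_Pra. The 3 smooth muscle markers summed to 22513 and 51702 CPM in the IR animals, against 15162 and 9861 in the treated ones. Transcript length set IR 1 apart: the median log2 ratio to it over the shortest 10% of transcripts was -0.59 in IR_Pra 1 and -0.44 in IR_Pra 2, and over the longest 10% 0.69 and 0.49. Against IR 2 the same medians were -0.11 and 0.03 for short and 0.20 and 0.02 for long transcripts. These are bulk tissue libraries, so fewer cells of a type and less RNA per cell cannot be told apart, here or in any result below.

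A single gene passed the threshold of an adjusted p under 0.05 in edgeR's quasi-likelihood test, 0.0055% of the 18197 tested. That gene, LOC110255225 (Entrez 110255225), is annotated as a C_region, a constant segment of an antigen receptor locus, on an unplaced scaffold from 3717842 to 3723115 in Sscrofa11.1. It was at 62.7 and 70.5 CPM in IR_Pra, at 0 in both IR libraries and at 59.5 and 44.2 in control. The irradiated animals without drug gave no count at all, and both treated animals lay just above the controls. Against a floor of 3 counts over the IR group the level in IR_Pra was at least 2880-fold higher (adjusted p = 0.0444). Constant segments of these loci resemble each other, and how reads that match several were counted is not stated in the sources at hand. The call was lost with the 4 libraries of the comparison alone (adjusted p = 0.195). It was also lost in each fit without a control or an IR_Pra library, which keeps 1 animal in that group. All other genes are given by their levels, since none of them passed. Without a correction for multiple tests, p was under 0.05 for 2037 higher genes (11.2%) and 2210 lower genes (12.1%), and at an adjusted p under 0.1 there were 435 higher and 438 lower genes.

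The count of calls depended on the tool and on the libraries in the fit. DESeq2 called 2550 genes (1182 higher and 1368 lower), and limma voom called 0, with 4419 at an unadjusted p under 0.05. Leaving out 1 library keeps 1 animal in its group, so the spread in that fit comes from the other 2 groups alone. By edgeR the count rose without either IR library and fell without a control or IR_Pra library. The IR libraries had 4347 genes at least 2-fold apart, against 938 for IR_Pra and 1004 for the controls. The counts of such fits are therefore not given. The comparison was therefore also read library by library. A gene counts as separated when its 4 log2 ratios (each IR_Pra library over each IR library, on log2 of CPM plus 0.5) are all 1 or more, or all -1 or less. By this reading 575 genes (3.16% of those tested) were at least 2-fold higher in both drug-treated libraries than in each IR library, and 571 (3.14%) were at least 2-fold lower. Against IR 1 alone, 1680 genes (9.23%) were 2-fold higher and 1234 (6.78%) 2-fold lower in both drug-treated libraries. Against IR 2 alone these were 1959 (10.8%) and 1994 (11%). Without a minimum size, 4960 genes (27.3%) were higher in all 4 ratios and 4844 (26.6%) were lower. A further 1732 genes (9.52%) had IR 1 above and IR 2 below both IR_Pra libraries, and 1826 (10%) had IR 2 above and IR 1 below.

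With library size as the only scaling the separated genes numbered 788 higher and 319 lower, and with the deposited FPKM 542 and 256, so the even split depends on the scaling. Library size alone moved the median log2 fold change of all genes from -0.02 to 0.14. The genes 2-fold higher had a median transcript length of 4669 nt and those 2-fold lower 2072 nt, against 3112 nt over all genes, and the length trend of IR 1 has the same direction. With that trend removed, 465 genes were 2-fold higher and 579 2-fold lower.

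**Figure D1:**
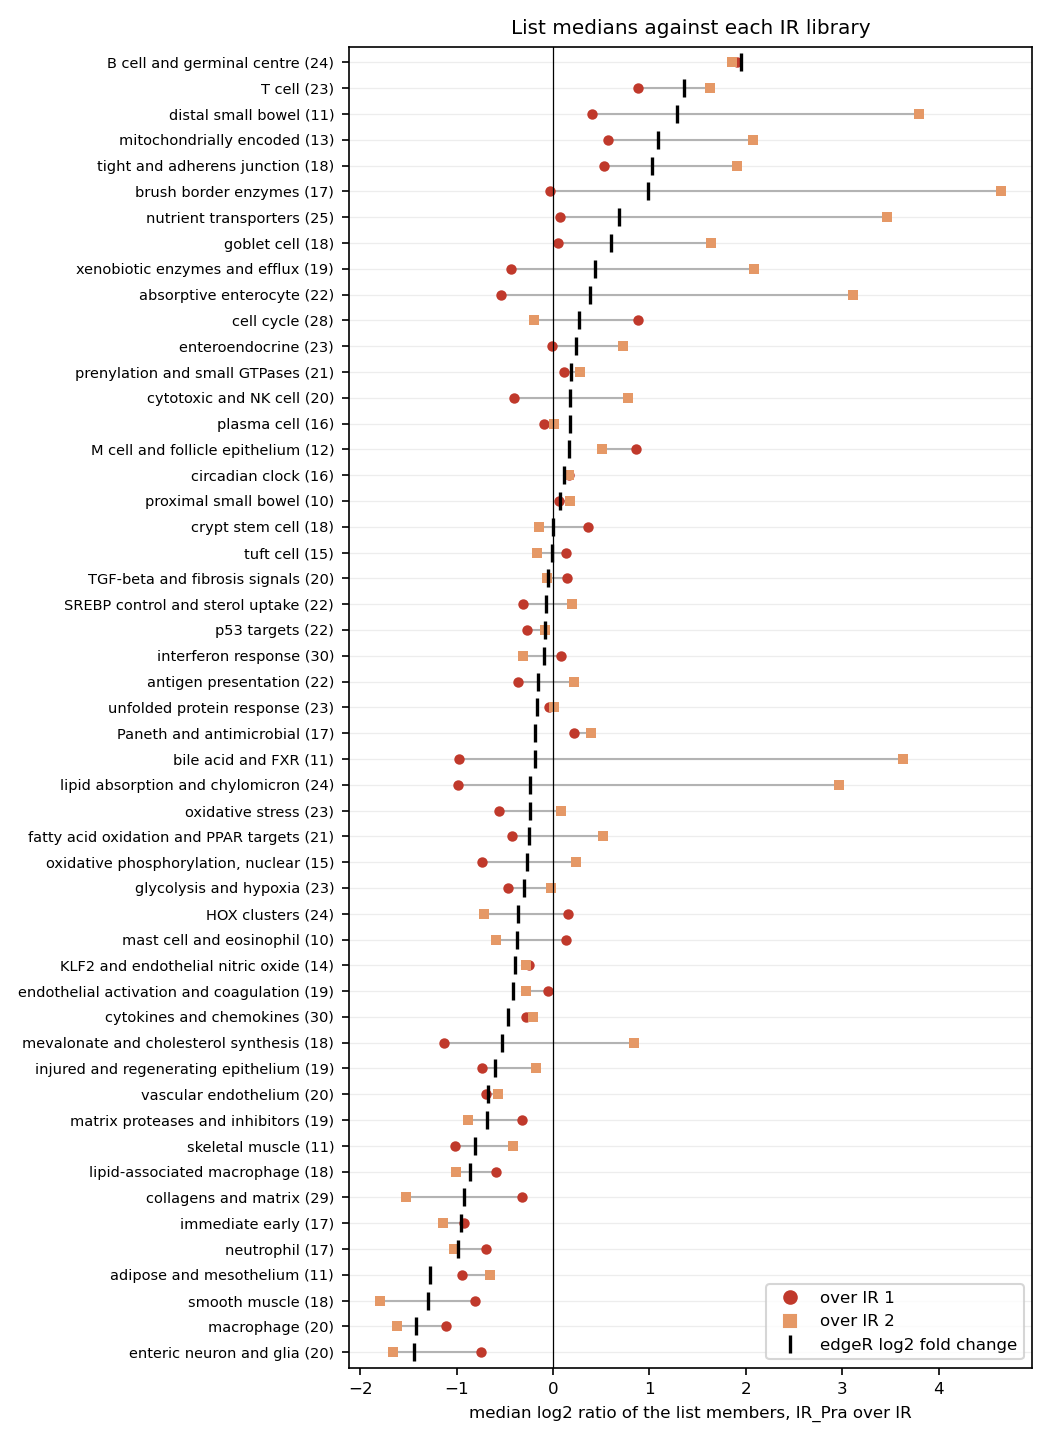
Median log2 ratio of IR_Pra over IR for the members of each gene list with at least 10 members tested (number in brackets), against IR 1 (circles) and against IR 2 (squares), with the median edgeR log2 fold change as a bar. B cell, T cell and junction lists lie to the right of 0 against both IR libraries, macrophage, smooth muscle and nerve lists lie to the left, and the brush border, lipid absorption and mevalonate lists have their circle and square far apart.

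Genes of lymphoid follicles were among those with the widest separation. PAX5, which maintains the B cell programme (chromosome 1, 237574938 to 237785454), was at 36 and 78.2 CPM in IR_Pra and 0.186 and 0.145 in IR, with 73.1 and 78.4 in control. Its log2 fold change was 8.43 ± 0.56 (adjusted p = 0.0689). MS4A1, which encodes the B cell surface protein CD20, was at 18.1 and 38.5 CPM in IR_Pra and 0.111 and 0.251 in IR (7.23 ± 0.69, adjusted p = 0.0813). The controls had 52.1 and 30.7 CPM of MS4A1. For both genes the irradiated animals without drug were close to 0, IR_Pra 1 lay below the controls and IR_Pra 2 within their range. CR1, a complement receptor of B cells and follicular dendritic cells, was at 49.9 and 101 CPM against 0.297 and 0.383 in IR. FCER2, the low-affinity IgE receptor CD23, was at 12.2 and 24.8 against 0.316 and 0.251 CPM. FCAMR, a receptor for the constant part of IgA and IgM, was at 22 and 69.4 CPM in IR_Pra and had 3 counts in IR over both libraries, a count ratio of 1989 with a 95% counting interval from 680.1 to 9647 that covers counting error only. These receptors had no overlap between the groups, and again IR_Pra 2 was the higher of the treated libraries.

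Among the 24 tested genes of B cells and germinal centres, 10 were 2-fold higher in all 4 ratios and 0 lower, beside 3.16% and 3.14% of all genes, and 18 were higher without overlap. The median log2 fold change of the list was 1.94, against -0.02 over all genes. It was 1.91 against IR 1 and 1.85 against IR 2, close to each other. Against IR 1 alone 14 of the 24 were 2-fold higher in both treated libraries, and against IR 2 alone 13. CXCL13, the chemokine that draws B cells into follicles, was at 49.4 and 162 CPM in IR_Pra and 0.891 and 2.3 in IR, with 84.9 and 24 in control. POU2AF1, a B cell coactivator also used by plasma cells, was at 25.4 and 71.3 against 15.3 and 14.9 CPM, a smaller gap. CD79A, a chain of the B cell receptor, was likewise present in IR, at 21.3 and 49 against 10.7 and 8.66 CPM. SPIB, a transcription factor of B cells and M cells, was at 70.3 and 138 against 47.3 and 20.3 CPM. LRMP, which is abundant in germinal centre B cells and tuft cells, was at 31 and 58 against 9.49 and 12 CPM.

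Genes of M cells and of their induction were measured beside the lymphocyte genes. GP2, the receptor by which M cells take up bacteria, was at 21.8 and 47.5 CPM in IR_Pra, 0.297 and 0 in IR and 180.4 and 83.2 in control. TNFSF11, the RANK ligand that induces M cells, was at 2.93 and 7.03 against 0.223 and 0.0528 CPM in IR. Both had no overlap between the groups and stood higher in IR_Pra 2 than in IR_Pra 1. In the M cell list 3 of 12 members were 2-fold higher, 7 overlapped, and the median was 0.16.

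Many T cell genes were also higher in both treated libraries. CD3D, the delta chain that signals for the T cell receptor, was at 9.94 and 11.2 CPM in IR_Pra and 4.07 and 3.06 in IR, with 14.5 and 12.4 in control (1.57 ± 0.29, adjusted p = 0.0884). BCL11B, which commits precursors to the T lineage, was at 6.81 and 5.1 against 0.761 and 0.753 CPM. LEF1, a transcription factor of naive T cells, was at 8.65 and 11.06 CPM against 2.01 and 1.85, above the 5.61 and 3.56 of the controls. None of these 3 overlapped between the groups. CD3E, another chain of the T cell receptor complex, did overlap, at 34.3 and 54.3 CPM in IR_Pra and 45.4 and 9.9 in IR. Of 23 T cell genes 7 were 2-fold higher in all 4 ratios, 16 were higher without overlap and none was lower, with a median of 1.35 (0.88 against IR 1 and 1.63 against IR 2). The cytotoxic and NK list had a median of 0.18 with 13 of 20 entries overlapping, and NCR3, an activating NK receptor, was its only member 2-fold higher in all 4 ratios (2.12 and 5.74 against 0.316 and 0.33 CPM). NKG7, a granule protein of cytotoxic cells, was lower, at 15.6 and 23.6 against 27.7 and 38.6 CPM.

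Plasma cell genes lay on both sides of 0. Over 16 of them the median was 0.17, with 5 higher and 5 lower without overlap. JCHAIN, which joins secreted IgA, was at 1172 and 729 CPM in IR_Pra and 1099.9 and 1839 in IR, so the groups overlapped. TNFRSF17, the survival receptor BCMA, was lower in IR_Pra at 15.4 and 12.1 against 21 and 24.9 CPM, and FCRL5, an Fc receptor-like protein of B lineage cells, was higher at 12.1 and 27.2 against 2.67 and 3.18. PIGR, which carries IgA across the epithelium, was at 964 and 721 CPM in IR_Pra, 170.4 and 465 in IR and 273 and 439 in control, above every other library in both treated animals. CCL28, the epithelial chemokine that draws IgA plasma cells, was at 10.3 and 5.14 CPM against 1.43 and 2.93 in IR and 2.03 and 3.16 in control.

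**Figure D2:**
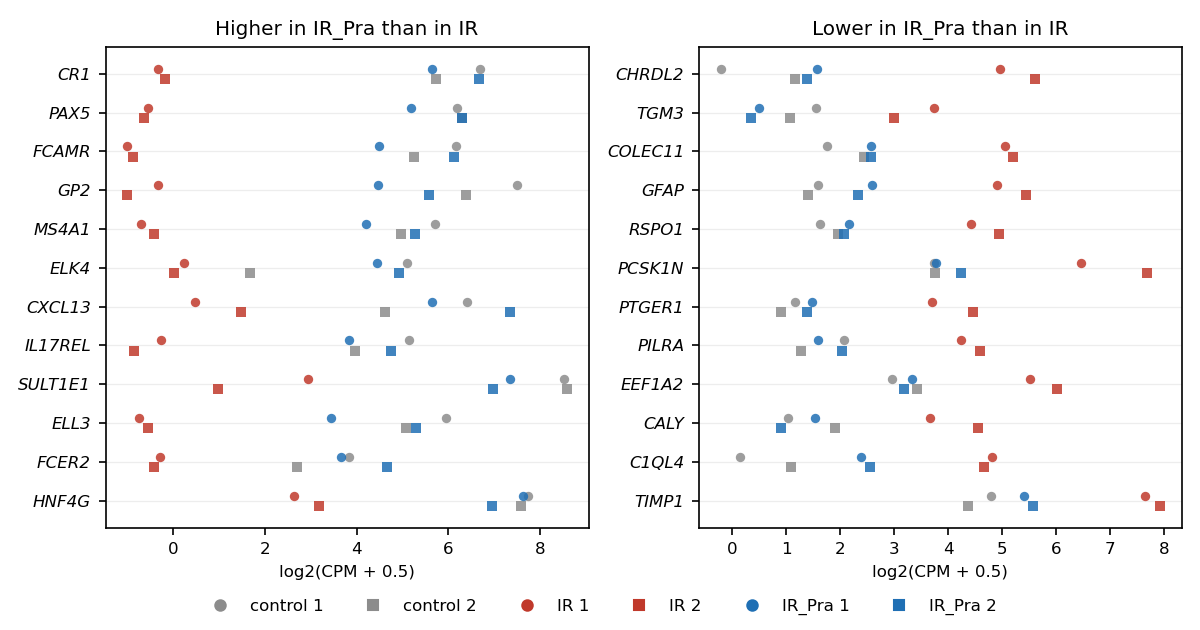
Levels in each of the 6 libraries, as log2 of CPM plus 0.5, of the 12 genes higher and the 12 genes lower in IR_Pra that had the widest separation from IR among genes with a mean of at least 5 CPM (circles library 1, squares library 2). In every gene the treated and untreated irradiated libraries do not overlap, as the selection requires.

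The 24 genes with the widest separation, 12 in each direction, had adjusted p between 0.0689 (PAX5) and 0.101 (ELK4), so none passed. They were chosen for their separation, which is therefore a description. Beside the follicle genes already given, HNF4G, a nuclear receptor of enterocytes (chromosome 4, 60505388 to 60641052), was at 199 and 124 CPM in IR_Pra against 5.74 and 8.57 in IR and 213 and 193 in control (4.5 ± 0.40, adjusted p = 0.0813). SULT1E1, which sulfates oestrogen, was at 161 and 126 against 7.21 and 1.48 CPM, with 366 and 384 in control, so the treated animals stayed below the controls. ELL3, a transcription elongation factor, was at 10.4 and 38.8 CPM against 0.0929 and 0.185. IL17REL, a relative of the IL-17 receptors, was at 13.7 and 26.6 CPM against 0.334 and 0.0528. The transcription factor gene ELK4 was at 21.4 and 30.04 CPM against 0.669 and 0.515, but the controls disagreed with each other at 33.6 and 2.7.

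On the lower side, TIMP1, an inhibitor of matrix proteases (chromosome X, 42103251 to 42106289), was at 41.7 and 46.8 CPM in IR_Pra and 201 and 243 in IR, with 27.1 and 20.05 in control (-2.32 ± 0.28, adjusted p = 0.0841). CHRDL2, a secreted BMP antagonist, was at 2.45 and 2.12 against 30.5 and 48.5 CPM. RSPO1, a secreted amplifier of Wnt signals, was at 4.0 and 3.71 against 21 and 30.2 CPM. The controls had 0.364 and 1.75 CPM of CHRDL2 and 2.58 and 3.41 of RSPO1, so in IR_Pra all 3 secreted proteins were above the controls and far below IR. COLEC11, a soluble collectin, was at 5.41 and 5.46 CPM against 32.8 and 36.3, and C1QL4, a C1q-like secreted protein, at 4.73 and 5.38 against 27.6 and 24.7. PILRA, an inhibitory receptor of myeloid cells, was at 2.49 and 3.58 CPM against 18.3 and 23.7. PTGER1, the EP1 receptor of prostaglandin E2, was at 2.28 and 2.1 CPM against 12.4 and 21.5. TGM3, an epithelial transglutaminase, was at 0.907 and 0.769 CPM against 12.8 and 7.49, and here the treated animals lay below the controls (2.44 and 1.6). EEF1A2, the elongation factor of nerve and muscle, was at 9.61 and 8.55 against 45.4 and 64.6 CPM, the neuroendocrine peptide gene PCSK1N at 13.1 and 18.4 against 88.1 and 205, and CALY, a neuronal vesicle protein, at 2.39 and 1.37 against 12.2 and 22.9.

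Most macrophage genes were lower in both treated libraries. CD163, the haemoglobin scavenger receptor of tissue macrophages, was at 44.1 and 42.5 CPM in IR_Pra, 134 and 206 in IR and 10.02 and 10.2 in control (-1.97 ± 0.28, adjusted p = 0.0845). CD209, a lectin of macrophages and dendritic cells, was at 22.1 and 18.2 against 64.5 and 140.2 CPM in IR. FOLR2, a folate receptor of resident macrophages, was at 13 and 13.7 against 47.3 and 62.6 CPM. For CD163 and CD209 the treated animals lay between control and IR, while FOLR2 and AIF1 (Iba1, 41.4 and 49.3 against 118 and 119 CPM) were close to the controls. Of 20 macrophage genes 7 were 2-fold lower in all 4 ratios and 14 lower without overlap, with none higher. The median was -1.42, and it was -1.11 against IR 1 and -1.62 against IR 2.

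The lipid-associated macrophage list, lysosomal and lipid-handling genes of activated macrophages, had a median of -0.86 with 8 of 18 lower without overlap and none higher. TREM2, the lipid-sensing receptor that names this state, was at 1.78 and 4.74 CPM in IR_Pra and 8.82 and 49.4 in IR, and was near 0 in control (0.0346 and 0.286). SLC11A1, a metal transporter of phagosomes, was at 1.76 and 1.44 against 7.86 and 21.2 CPM. The lysosomal proteases CTSB (449 and 584 against 1471 and 2042 CPM) and CTSL (11.7 and 16.7 against 27 and 27 CPM) were likewise lower in both treated animals. APOE was not separated, at 194 and 399.6 CPM in IR_Pra and 309.9 and 1037 in IR. Among 17 neutrophil genes the median was -0.99, with 10 lower and 1 higher without overlap. LTF, the iron-binding lactoferrin of granules, was at 0.0386 and 0.0375 CPM against 1.06 and 2.5, with 2 counts in each treated library. The Fc receptor FCGR3A, which is not limited to neutrophils, was at 58.6 and 101 CPM against 199.9 and 224. ALPL, tissue-nonspecific alkaline phosphatase, was at 6.95 and 6.71 against 16.8 and 20.6 CPM.

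Cytokine and interferon genes lay on both sides of 0. In the list of 30 cytokines and chemokines 13 were lower and 6 higher without overlap, and the median was -0.46. CXCL2, a neutrophil chemokine, was at 1.97 and 1.09 CPM in IR_Pra and 8.19 and 8.9 in IR, and CCL21, which guides T cells and dendritic cells through lymphatics, at 17.9 and 24.4 against 47 and 71.7. The inflammatory mediators IL1B (1.1 and 1.22 against 1.41 and 2.06 CPM) and CXCL8 (20.1 and 13.7 against 21.4 and 11.9 CPM) were low or overlapping. Interferon response genes had a median of -0.10 (0.07 with library size as the only scaling) with 21 of 30 overlapping. IFI6, an interferon-induced mitochondrial protein, was the exception that separated 2-fold, at 83.8 and 83.7 CPM against 292 and 404, and ISG15 was at 18.1 and 28.6 against 43 and 97.2. Genes of antigen presentation lay at -0.15 (0.03 with that scaling), and CD74, the chaperone of class II molecules, was at 1709.7 and 2990.1 CPM against 4588 and 4255.

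Many genes of the muscle wall, nerves and matrix were lower in IR_Pra, and their medians were lower against IR 2 than against IR 1. GFAP, the filament of enteric glia, was at 5.48 and 4.52 CPM in IR_Pra, 29.6 and 42.8 in IR and 2.49 and 2.14 in control (-2.86 ± 0.31, adjusted p = 0.0841). UCHL1, an abundant neuronal ubiquitin hydrolase, was at 13.3 and 10.6 against 57.2 and 87.5 CPM. PRPH, a filament of peripheral neurons, was at 16.2 and 15.4 against 67.9 and 112 CPM. In each of the 3 genes IR 2 was the highest library. The controls had 9.0 and 12.1 CPM of UCHL1 and 11.7 and 15.4 of PRPH, close to the treated animals, while GFAP was above the controls in both. Of 20 neuron and glia genes 15 were lower without overlap, 4 of them 2-fold, and none was higher. Their median was -1.44, with -0.75 against IR 1 and -1.67 against IR 2. Against IR 1 alone 5 were 2-fold lower, and against IR 2 alone 16.

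Smooth muscle genes had a median of -1.30 (-0.81 against IR 1, -1.80 against IR 2), with 12 of 18 lower without overlap. TAGLN, an actin-binding protein of smooth muscle, was at 2430.2 and 2129 CPM in IR_Pra, 6487 and 10729.8 in IR and 743 and 1666 in control. TPM2, a tropomyosin, was at 1547 and 1390.5 against 5179.8 and 8862 CPM. ACTA2, smooth muscle actin, was at 327 and 331 against 626 and 652 CPM, with 237 and 202 in control (-0.96 ± 0.27, adjusted p = 0.128). The labels do not say which wall layers were sampled, and the smooth muscle level moved with the groups in the same direction as the matrix and nerve genes. Its part in those results was not tested. Of the skeletal muscle genes, CKM, muscle creatine kinase, was at 188 and 136 CPM in IR_Pra, 325 and 383 in IR and 38.3 and 117 in control, and MYH2, a fast skeletal myosin, at 0.309 and 0.15 against 1.75 and 3.97.

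Collagens and matrix genes had a median of -0.93, with -0.32 against IR 1 and -1.52 against IR 2. Of the 29, 2 were 2-fold lower against IR 1 alone, and 18 against IR 2 alone. COL1A1, a type I collagen chain, was at 1724 and 1321 CPM in IR_Pra and 2531 and 8942 in IR, with 338 and 683 in control (-1.91 ± 0.72, adjusted p = 0.19). COL3A1 overlapped, at 3274 and 1969 against 3036 and 10459 CPM, since IR 1 lay between the treated libraries. COL18A1, a basement membrane collagen, was at 300.3 and 215 against 641 and 812 CPM, and the small proteoglycan BGN at 36.8 and 26 against 63.7 and 70.03. Both were lower without overlap, COL18A1 by 2-fold in all 4 ratios and BGN by less in some of them. BGN did not reach the control level of 18.9 and 14.3 CPM. Among 19 matrix proteases and inhibitors 3 were separated by 2-fold on the lower side and 2 on the higher side. MMP19, a protease of the stroma, was at 14.2 and 14.2 CPM against 35.2 and 47.3. MMP12, the macrophage elastase, went the other way from the macrophage list, at 3.96 and 8.85 CPM in IR_Pra, 0.204 and 0.145 in IR and 9.23 and 5.17 in control. TIMP4 was also higher, at 18.1 and 14.8 against 6.39 and 4.25 CPM. TGFB1, the main profibrotic cytokine, overlapped at 63.4 and 92.7 CPM in IR_Pra and 76.1 and 106 in IR, and its list had a median of -0.06, or 0.09 with library size as the only scaling. TGFB3 was lower at 3.55 and 3.28 against 7.11 and 15.4 CPM, and the signal transducer SMAD4 higher at 61.7 and 52.9 against 31.8 and 29.2.

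Some endothelial genes were lower in IR_Pra. EGFL7, a factor secreted by endothelium, was at 22.3 and 22.5 CPM in IR_Pra, 77.5 and 94.2 in IR and 29.7 and 21.7 in control. CLDN5, the endothelial claudin, was at 4.75 and 6.19 against 13.8 and 15.8 CPM, and SOX18, a vascular transcription factor, at 6.91 and 6.28 against 15 and 27.9. These 3 were the members 2-fold lower among 20, of which 11 were lower without overlap, with a median of -0.67. The pan-endothelial markers PECAM1 (69.2 and 59.3 against 53 and 93.3 CPM) and CDH5 (35.5 and 25.5 against 22.8 and 39 CPM) overlapped. The endothelial genes KLF2, NOS3 and THBD, known to be induced by statins, were not higher in the treated animals than in IR. KLF2, the shear-stress transcription factor, was at 17.7 and 24.4 CPM in IR_Pra, 29.8 and 36 in IR and 21.7 and 15.2 in control (-0.64 ± 0.30, adjusted p = 0.265). NOS3, endothelial nitric oxide synthase, was at 6.8 and 6.02 against 10.3 and 17.4 CPM (-1.11 ± 0.35, adjusted p = 0.143), above the controls (4.69 and 4.27). THBD, thrombomodulin, was at 13.1 and 11.14 against 23.1 and 20.1 CPM (-0.83 ± 0.29, adjusted p = 0.17), with 12.9 and 8.68 in control. All 3 lay lower in both treated libraries than in each IR library, none of them by 2-fold in all 4 ratios. In the same list DDAH2, which degrades an inhibitor of nitric oxide synthase, was at 19.2 and 20.2 CPM against 49.7 and 92.3, and KLF4, which is also an enterocyte and goblet cell factor, was higher at 118 and 114 against 42.6 and 18.6.

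Among 18 genes from acetoacetyl-CoA to cholesterol, 3 (16.7%) were lower in both treated libraries than in each IR library, and 1 (5.56%) was higher. Over all genes 26.6% were lower and 27.3% higher in this sense, so both shares were below those of all genes. MVD, which makes isopentenyl pyrophosphate, was lower at 38.3 and 30.5 CPM against 109 and 44.3, as were the kinase PMVK (11.06 and 9.49 against 29.7 and 15.4 CPM) and the sterol reductase HSD17B7 (10.7 and 9.0 against 21.1 and 11.8 CPM). In 8 of the 18 genes, or 44.4% beside 9.52% of all genes, IR 1 lay above and IR 2 below both treated libraries. Those 8 are ACAT2, FDPS, FDFT1, SQLE, MSMO1, SC5D, EBP and DHCR7, and they are listed because together they are the full count. FDPS, which makes farnesyl pyrophosphate, was at 348 and 66.5 CPM in IR and 139.6 and 101 in IR_Pra. MSMO1, the methylsterol monooxygenase, was at 165 and 14.4 CPM in IR and 106 and 52.8 in IR_Pra. HMGCS1, a synthase early in the pathway, was at 147 and 55.9 CPM in IR_Pra and 132 and 32.4 in IR, so the groups overlapped. The median of the list was -1.14 against IR 1 and 0.84 against IR 2, so its direction depended on which irradiated animal it was compared with.

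SREBP control genes were also mixed, with a median of -0.08 (0.08 with library size as the only scaling). Of 22 genes 4 (18.2%) were higher and 5 (22.7%) lower without overlap, both below the 27.3% and 26.6% of all genes. INSIG1, which retains SREBP in the endoplasmic reticulum, was at 100.02 and 76 CPM in IR_Pra and 185 and 49 in IR, so the IR animals lay on either side. SREBF1, the SREBP of fatty acid synthesis, was lower at 72.6 and 89.8 CPM against 223 and 149, below the controls (185 and 126). The desaturase SCD was at 27.7 and 26.2 against 42.6 and 42.6 CPM. NPC1, which exports cholesterol from lysosomes, was higher at 49.9 and 65.1 against 34.5 and 22.7 CPM, and NPC1L1, the intestinal cholesterol importer, was at 292 and 223 against 125 and 9.26, where the low value is IR 2. The 9 LXR and sterol export genes had a median of -0.18 with 6 overlapping.

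Among 21 genes of prenylation and of the GTPases that carry prenyl groups, RHOB, a stress-induced GTPase, was the only one 2-fold lower in all 4 ratios. It was at 114 and 80.8 CPM in IR_Pra, 235 and 375 in IR and 46 and 50.9 in control (-1.65 ± 0.35, adjusted p = 0.0956), so the treated animals lay between control and IR. ROCK2, a kinase that promotes actomyosin contraction, was 2-fold higher at 85.3 and 32.4 CPM against 7.52 and 13.3, with 109.7 and 75.9 in control. It was higher in IR_Pra 1 than in IR_Pra 2. NRAS, a GTPase of growth factor signalling, was at 19.2 and 16.8 CPM against 10.7 and 11.2. The median of the list was 0.19, with 9 higher and 6 lower without overlap.

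**Figure D3:**
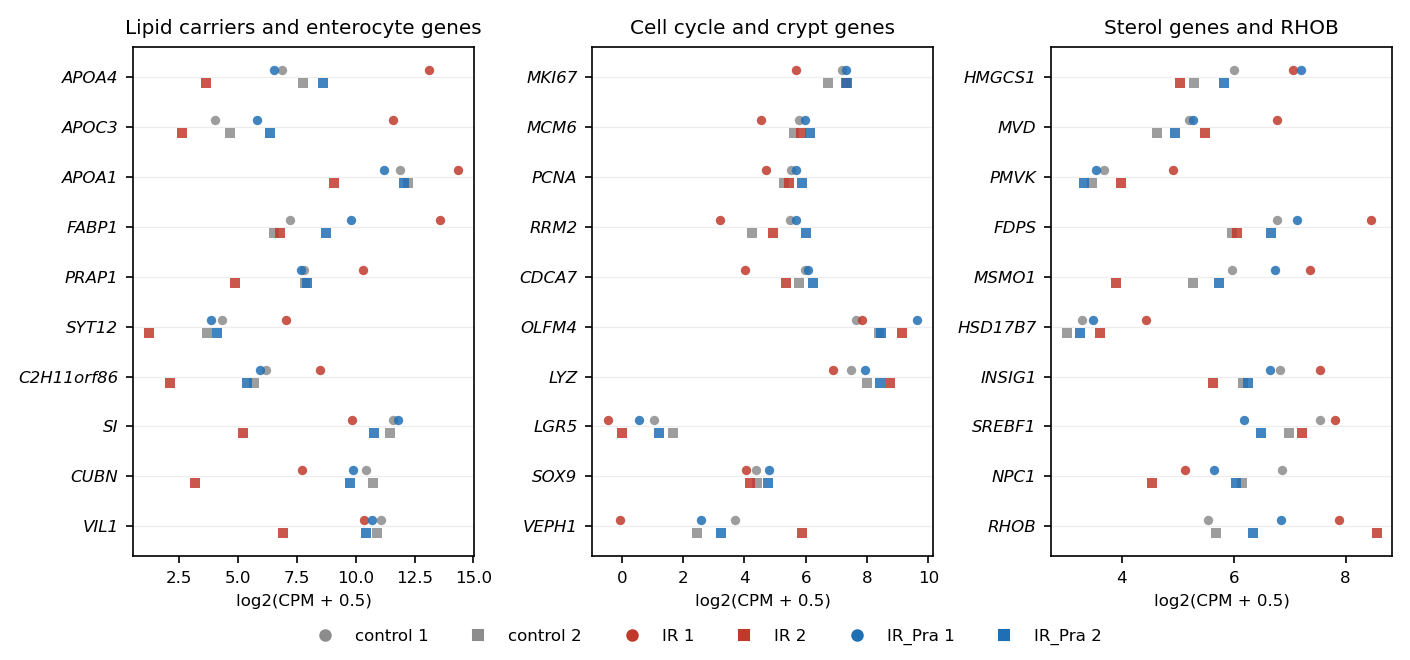
Levels in each of the 6 libraries, as log2 of CPM plus 0.5, of lipid carrier and enterocyte genes, of cell cycle and crypt genes, and of sterol genes and RHOB (circles library 1, squares library 2). For APOA4, APOC3 and APOA1 the treated and control libraries lie between a high IR 1 and a low IR 2, and MVD and RHOB lie lower in both treated libraries than in each IR library.

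In absorptive epithelium the IR animals lay on opposite sides of the treated ones. APOA4, the apolipoprotein of chylomicrons, was at 92.8 and 388 CPM in IR_Pra and at 8928 and 12.1 in IR, with 115 and 217 in control. APOC3 was at 56.3 and 82.5 CPM against 3025 and 5.64, and FABP1, the fatty acid carrier of the proximal bowel, at 892 and 426 against 12258 and 109.98. In all 3 the treated animals lay far below IR 1 and above IR 2, so a mean over the IR group describes neither animal. Of 24 lipid absorption genes 17 had this order, or 70.8% beside 9.52% of all genes, and the median was -0.98 against IR 1 and 2.97 against IR 2. The absorptive enterocyte list had the same form, with 12 of 22 genes in that order and medians of -0.54 and 3.11. By the rule for the widest opposite gaps, APOA1 (21046 and 544 CPM in IR, 2323 and 4276 in IR_Pra), the secreted epithelial protein PRAP1 (1277 and 29, 202 and 246), the synaptotagmin SYT12 (130.04 and 1.81, 13.9 and 16.9), ERICH4 (70.7 and 2.98, 16.4 and 16.2) and C2H11orf86 (359 and 3.82, 60.1 and 41.3) also had IR 1 on top. VEPH1 was the only one of the 8 with IR 2 on top (0.464 and 58.8 CPM in IR, 5.54 and 8.87 in IR_Pra).

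Some epithelial genes were higher in both treated libraries than in each IR library. SI, the brush border sucrase-isomaltase, was at 3534 and 1735 CPM in IR_Pra, 911 and 37.1 in IR and 3041 and 2792 in control. ENPEP, a brush border aminopeptidase, was at 2094 and 1469 against 568 and 27.4 CPM, and CUBN, the receptor for the vitamin B12 carrier, at 933 and 871 against 208 and 8.48. Each was low in IR 2 by far more than in IR 1. Of 17 brush border enzymes 3 were 2-fold higher in all 4 ratios, and the median of -0.03 against IR 1 stood beside 4.65 against IR 2. HNF4A, the nuclear receptor that drives enterocyte genes together with HNF4G, was at 204 and 218 CPM in IR_Pra against 108 and 59.5 in IR. Nutrient transporters had 11 of 25 higher without overlap, with medians of 0.07 and 3.46 against IR 1 and IR 2. SLC46A1, the proton-coupled folate transporter, was the exception 2-fold lower, at 7.05 and 6.45 CPM against 17.3 and 15.2.

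Several junction genes were higher in IR_Pra than in each IR library. F11R, the junctional adhesion molecule JAM-A, was at 76.1 and 76.9 CPM in IR_Pra, 23.3 and 13.5 in IR and 103 and 105 in control (2.06 ± 0.32, adjusted p = 0.0845). CXADR, a tight junction adhesion protein, was at 30.8 and 12 against 3.12 and 1.6 CPM. MARVELD2, the tricellulin of tricellular contacts, was at 24.1 and 19.3 against 9.42 and 3.8 CPM. Of 18 genes 12 were higher without overlap, 2 of them 2-fold, and none lower, with medians of 0.52 and 1.91. ITGA2, a collagen receptor of epithelium listed among injury genes, was at 55.9 and 31.9 CPM against 4.74 and 8.71. S100A2, a calcium-binding protein of that list, was lower at 37.1 and 34.4 CPM in IR_Pra than the 135 and 177 in IR, still above the 5.18 and 5.71 of the controls, and S100A11 was at 62.9 and 75 against 157 and 160.4.

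Secretory cell genes were mixed. Goblet cell genes had medians of 0.05 against IR 1 and 1.64 against IR 2. ATOH1, the factor that sets the secretory fate, was at 34.7 and 24.6 CPM in IR_Pra and 12.7 and 8.32 in IR, with 39.6 and 30.3 in control. Among 23 enteroendocrine genes 3 were 2-fold higher, PAX6 (1.06 and 1.52 against 0.111 and 0.224 CPM), PCSK1, a prohormone convertase (8.09 and 5.98 against 2.21 and 2.57 CPM), and TPH1, which makes serotonin (4.36 and 2.96 against 1.23 and 0.858 CPM). The hormone somatostatin, SST, was lower at 24.9 and 31.8 against 60.2 and 74.9 CPM. POU2F3, the master factor of tuft cells, was at 2.39 and 5.48 CPM against 0.52 and 0.726, and AVIL, a tuft cell actin severing protein, at 218 and 251 against 141 and 151. REG3G, a bactericidal lectin of the epithelium, was at 671 and 218 CPM in IR_Pra, 81.2 and 40.5 in IR and 0.45 and 6.14 in control, so the treated animals held the 2 highest levels.

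Cell cycle genes, which dividing cells of any type express, split the IR animals the other way. MKI67, a marker of cycling cells, was at 158 and 162 CPM in IR_Pra, 50.7 and 159 in IR and 146 and 105 in control, so IR 1 was low and IR 2 lay between the treated libraries. In 15 of 28 cell cycle genes, or 53.6% beside 10% of all genes, IR 2 lay above and IR 1 below both treated libraries, and the medians were 0.89 against IR 1 and -0.20 against IR 2. RRM2, a ribonucleotide reductase subunit, was higher without overlap at 51.2 and 63.7 CPM against 8.73 and 29.9, as was CDCA7 at 67 and 74.5 against 15.8 and 40.3. LGR5, the receptor that marks crypt stem cells, was at 0.985 and 1.84 CPM in IR_Pra, 0.223 and 0.502 in IR and 1.56 and 2.68 in control (1.94 ± 0.67, adjusted p = 0.165). OLFM4, an abundant stem and progenitor cell product, overlapped at 801 and 353 against 226 and 568 CPM. SOX9 was at 27.2 and 26.6 CPM against 16 and 17.7, and HOPX, a marker of slow-cycling cells that other tissues also express, was 2-fold lower at 10.9 and 12.1 against 25.2 and 29.1. LYZ, the Paneth cell lysozyme that macrophages also make, was at 246 and 344 against 117 and 435 CPM and did not separate.

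Damage and stress genes included several that were lower in both treated animals. PHLDA3, a p53-induced repressor of AKT, was at 43.9 and 36.5 CPM in IR_Pra, 159 and 251 in IR and 10.4 and 7.97 in control (-2.35 ± 0.33, adjusted p = 0.0845). CDKN1A, the cell cycle inhibitor p21, was at 96.8 and 116 against 209 and 155 CPM (-0.77 ± 0.27, adjusted p = 0.172), and the p53 feedback ligase MDM2 at 24.2 and 18.6 against 4.33 and 27.1, where IR 1 is the low library. TP53INP1, another p53 target, was higher at 74.8 and 74.1 CPM against 36.1 and 43.6. Of 22 p53 targets 9 were lower and 4 higher without overlap (median -0.09, and 0.12 with library size as the only scaling). Immediate early genes, which stretch and tissue handling also induce, had a median of -0.95 with 12 of 17 lower without overlap, 5 of them 2-fold. FOS was at 48.5 and 22.7 CPM against 186 and 106, JUNB at 70.7 and 88.9 against 196 and 202, and ATF3, which also answers stress in the endoplasmic reticulum, at 15.6 and 16.1 against 57.1 and 39.8. FOSL2 was the member 2-fold higher, at 150.4 and 194 CPM against 66.1 and 54.5. Unfolded protein response genes had a median of -0.17 and oxidative stress genes -0.24 (0.01 with the length trend removed), with GPX1 at 194.8 and 307 CPM against 569.5 and 555 and GCLC, the enzyme that limits glutathione synthesis, higher at 48.5 and 39.2 against 20.8 and 21.1.

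Mitochondrially encoded transcripts took 5.31% and 5.9% of counts in IR_Pra, 3.91% and 1.48% in IR and 8.35% and 5.87% in control. ND4L and ND4, subunits of complex I, were 2-fold higher in all 4 ratios, at 494 and 386 CPM against 58.6 and 75.6 for ND4L and 4153 and 4297 against 2015 and 1006 for ND4. Of the 13 protein genes 6 (46.2%) were higher without overlap, beside 27.3% of all genes, and 7 overlapped. Among those 7, ND1 was at 858 and 823 CPM in IR_Pra and 2118 and 187 in IR. The 13 had medians of 0.57 against IR 1 and 2.07 against IR 2, and the 15 nuclear genes of oxidative phosphorylation -0.74 and 0.24. The nuclear subunit NDUFA2 was lower, at 35.4 and 35.3 CPM against 89.2 and 57.2. PPARA, the receptor that drives fatty acid oxidation, was 2-fold higher at 12.3 and 7.39 CPM against 1.49 and 1.31.

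**Figure D4:**
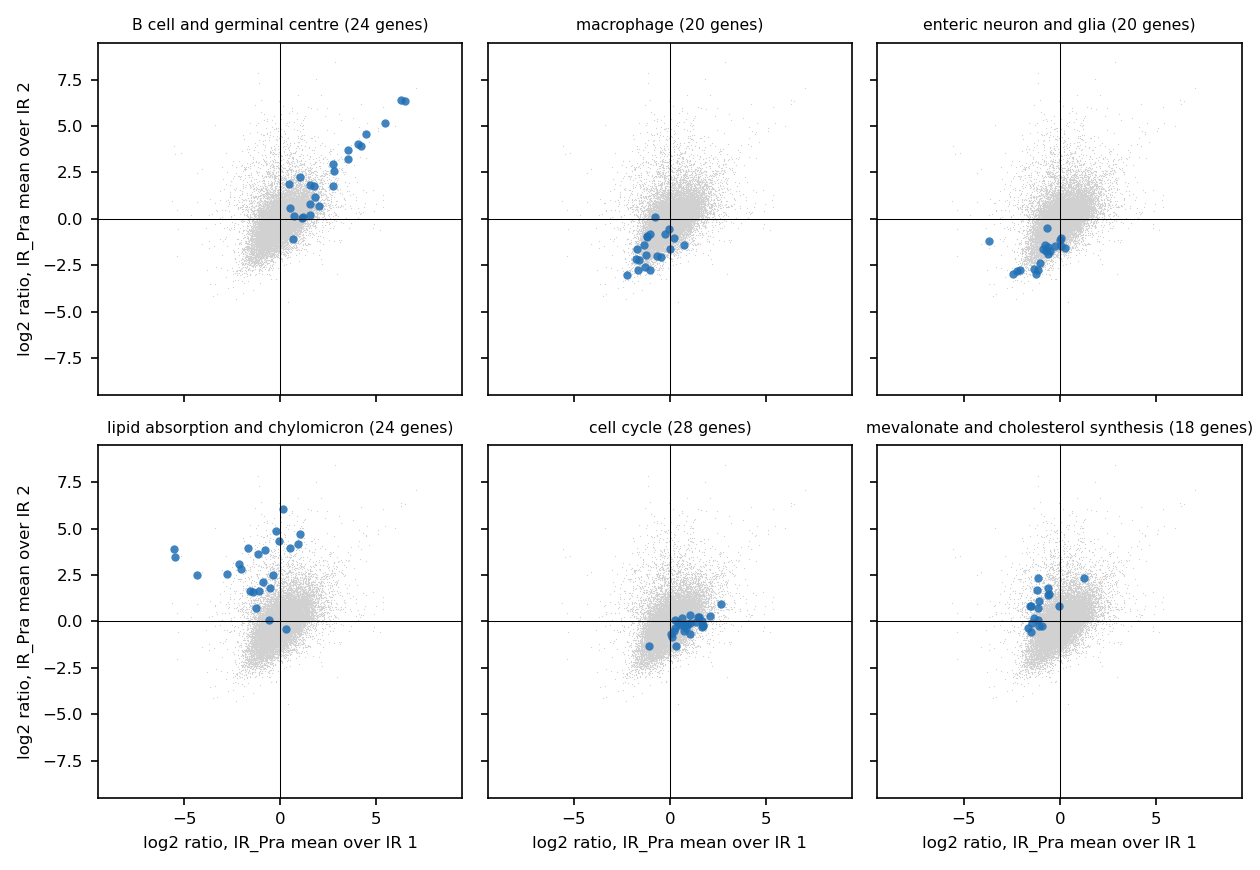
Log2 ratio of the IR_Pra mean over IR 1 (horizontal) and over IR 2 (vertical) for all genes tested (grey) and for the members of 6 lists (blue), each ratio on log2 of CPM plus 0.5. Both axes hold the same IR_Pra mean, so the slope of the grey cloud is no result. Most B cell genes lie at the upper right and macrophage and nerve genes at the lower left, while lipid absorption genes lie at the upper left, with IR 1 high and IR 2 low.

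Genes that mark position along the body were read because the bowel segment is not stated. HOXA9, a homeobox gene of the posterior body, was at 39.2 and 14.7 CPM in IR_Pra, 0.743 and 0.423 in IR and 0.208 and 0.175 in control (5.54 ± 0.65, adjusted p = 0.0841). HOXB6 was at 168 and 99 CPM in IR_Pra, 25.2 and 51.6 in IR and 14.9 and 21 in control. HOXA10, which marks more posterior positions still, had no count in control or IR and was at 1.16 and 0.169 CPM in IR_Pra, at least 28.4-fold higher against a floor of 3 counts over the IR group. In 7 of the 24 HOX genes tested (HOXA9, HOXA10, HOXB6, HOXB7, HOXC10, HOXD3 and HOXD8) both treated libraries lay above all 4 others, 29.2% beside 4.73% of all genes. Against IR alone 8 of the 24 were higher and 8 lower without overlap (33.3% each), near the 27.3% and 26.6% of all genes. The HOX list was added after its values were seen. Others went the opposite way: HOXC5 was at 1.25 and 0.713 CPM against 4.22 and 7.49, HOXC4 at 3.42 and 3.04 against 7.04 and 12.3 and HOXB2 at 10.3 and 6.77 against 18.3 and 49.7. The median of the list was -0.37, with 0.15 against IR 1 and -0.72 against IR 2.

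**Figure D5:**
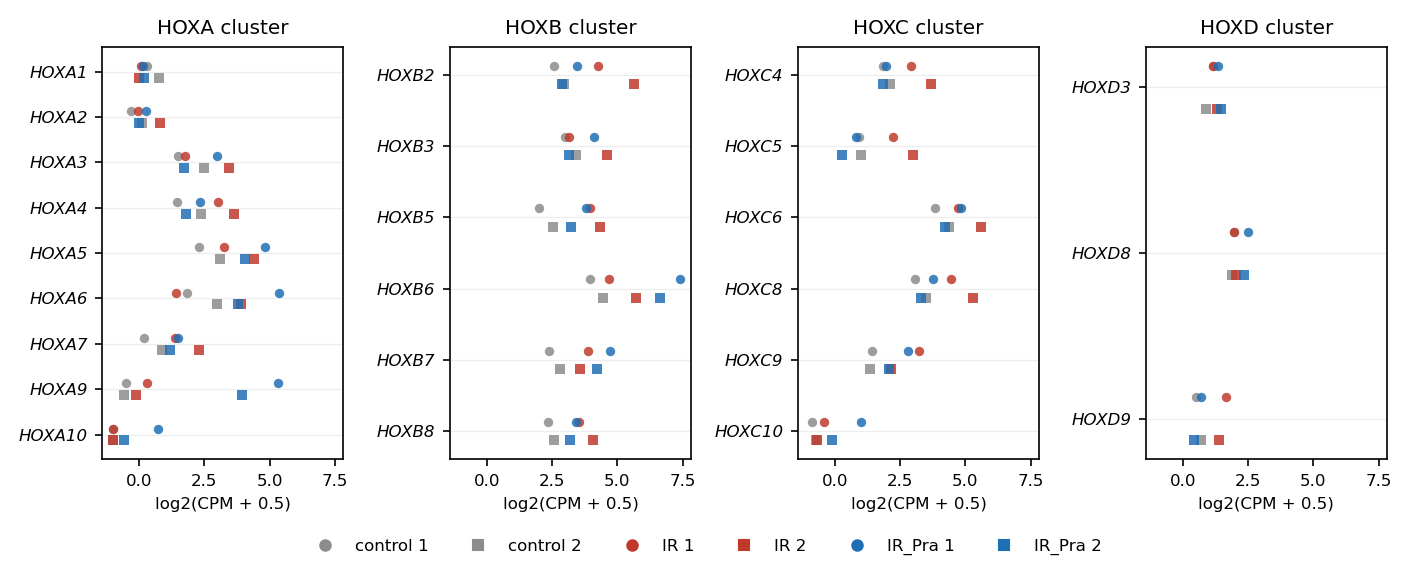
Levels in each of the 6 libraries, as log2 of CPM plus 0.5, of the 24 HOX genes tested, by cluster and in order of gene number (circles library 1, squares library 2). In HOXA9 and HOXB6 both treated libraries lie above the 4 others, and in HOXC4 and HOXC5 both lie below the IR libraries.

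Of 11 distal small bowel genes 5 were higher without overlap, with medians of 0.40 against IR 1 and 3.79 against IR 2, and of 10 proximal ones 3 were higher and 1 lower. These are 45.5% of the distal genes and 30.000% of the proximal ones higher, beside 27.3% of all genes. CYBRD1, the duodenal iron reductase, was at 105 and 174 CPM against 70.4 and 64.9. Lymphoid follicles and absorptive functions vary along the small bowel, and the part of the sampled segment in any result of this comparison was not tested.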

How the data were processed

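The deposited table holds whole-number read counts and FPKM for each of the 6 small intestine libraries, per the file headers. The submitters' processing notes name bcl2fastq 2.20.0, Trimmomatic, HISAT2 2.1.0 and StringTie 2.1.3b and the builds Sscrofa11.1 and GRCh38. How the authors made the counts, and what the second build was for, is not stated in the labels or headers. FPKM values deposited by the authors served only in alternatives. All 30352 named rows matched RefSeq (Sscrofa11.1) by Entrez ID, and 24 rows without a name (0.00906% to 0.0385% of counts) were left out.

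Counts were tested with edgeR 4.0.16 in R 4.3.3: filterByExpr by group, TMM scaling, 1 quasi-likelihood fit over all 6 libraries with group terms (3 residual degrees of freedom), a two-sided F test, and Benjamini-Hochberg adjustment over 18197 genes. Standard errors derive from the F statistic, and edgeR's common coefficient of variation was 0.431. Lists are described by counts and medians. Alternatives used DESeq2 1.42.0, limma 3.58.1, other scalings, filters, thresholds and pseudocounts, and left out each library.

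Named genes were, by rule, up to 12 per direction that passed (LOC symbols aside), filled up with genes of at least 5 CPM that had the widest smallest ratio of the 4, the 8 with the widest opposite gaps between the IR libraries, up to 4 members of each of 54 lists with the smallest p, and a fixed set. Tissue markers, LOC110255225, 8 sterol genes and the HOX genes are named outside it, the last 3 after their values were seen. Some genes are not reported here. The members and lists were chosen with earlier results of these data known.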

Additional observations from a re-analysis of the deposited data

How the results depend on the processing

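The count of genes past the threshold by edgeR, 1 (1 higher and 0 lower), was the same with the size factors of DESeq2, a filter of 5 CPM in 2 libraries, the length trend removed, and limma trend on FPKM. It was 2 (2 higher) with library size alone and 18 (16 higher and 2 lower) with no filter. It was 0 with the 4 libraries alone (3351 genes at an unadjusted p under 0.05) and with limma voom (4419). DESeq2 gave 2550 (1182 higher and 1368 lower), and an adjusted p under 0.1 gave 873 (435 and 438). Leaving out a library gave between 0 and 3257 calls, 0 and 1769 higher and 0 and 1488 lower: 3257 without IR 1, 2115 without IR 2 and 0 without each of the others. The cause of these differences was not tested.

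Same-numbered IR and IR_Pra libraries are different animals and did not deviate together (Pearson r across genes -0.09). With the replicate number as a block the count was 0 in both directions, with 3417 genes at an unadjusted p under 0.05 and a smallest adjusted p of 0.172, and DHCR7 (0.19) and MSMO1 (0.39) changed sign.

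Genes 2-fold higher in all 4 ratios numbered 575 and were 362 with a pseudocount of 2 CPM, 83 at 4-fold, and between 905 and 1959 with a library left out, which leaves 2 ratios. Those 2-fold lower numbered 571 and were 319 with library size alone, 256 with FPKM, 372 with a pseudocount of 2 CPM, 25 at 4-fold, and between 943 and 1994 with a library left out. The other settings stayed within 1.5 times.

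Of 179 named genes, 29 changed sign with some library left out, and most of these had the IR animals on opposite sides. Their log2 fold changes with a library left out ran as follows: SYT12 -3.07 to 3.09, APOA1 -2.67 to 2.60, VEPH1 -3.03 to 3.95, C2H11orf86 -2.82 to 3.73, PRAP1 -2.51 to 2.95, ERICH4 -2.11 to 2.45, APOC3 -5.44 to 3.62, APOA4 -5.72 to 4.32, OLFM4 -0.21 to 1.35, TGFB1 -0.57 to 0.04, INSIG1 -1.07 to 0.85, CLU -0.32 to 0.70, CPA1 -3.16 to 0.12, MDM2 -0.33 to 2.31, MUC2 -0.33 to 3.24, HMGCS1 -0.67 to 1.65, LYZ -0.56 to 1.33, CXCL8 -0.37 to 0.51, FABP1 -4.22 to 2.59, ACAT2 -1.12 to 0.75, DHCR7 -1.19 to 1.71, SQLE -0.58 to 1.57, FDPS -1.53 to 0.86, CDH5 -0.35 to 0.42, MSMO1 -1.05 to 2.47, SC5D -0.64 to 1.87, PECAM1 -0.54 to 0.28, FDFT1 -1.05 to 1.10, EBP -1.52 to 0.87. Under other settings the sign changed for MUC2 (-0.28) and MSMO1 (0.28) with the length trend removed, CXCL8 (-0.06) with the 4 libraries alone, and CDH5 (0.11) and MSMO1 (0.09) with library size alone. Under DESeq2 none changed sign. Of 55 list medians, 11 changed sign without IR 1, 11 without IR 2, 7 without IR_Pra 1, 4 without IR_Pra 2, 8 with library size alone, 6 with the block and 0 under DESeq2.

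With 2 animals per group and a common coefficient of variation of 0.431, an adjusted p above 0.05 does not show that a gene did not differ. Levels under 1 CPM rest on fewer than 100 counts per library.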

Other observations

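The clock list was near the background of all genes. Of 16 clock genes 5 (31.2%) were higher and 3 (18.8%) lower without overlap, beside 27.3% and 26.6% of all genes, with a median of 0.12, and none was 2-fold apart in all 4 ratios. ARNTL, which drives the clock with CLOCK, was at 17.2 and 21.6 CPM in IR_Pra, 9.84 and 8.37 in IR and 14.4 and 14.7 in control, and CLOCK at 21.2 and 15.3, 4.46 and 8.07 and 17.9 and 17.7. DBP, an output gene of the clock, was lower at 22.4 and 19.4 CPM against 38.3 and 36.8 in IR and 62.8 and 46.3 in control. NR1D2, a repressor in the loop, was higher at 43.7 and 27 against 12.8 and 18.2 CPM. The labels do not give the hour of sampling.

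MT1A, a metallothionein, was at 6.95 and 165 CPM in IR_Pra, 1.49 and 2.94 in IR and 37.3 and 68.3 in control, so the treated animals differed from each other by more than the controls did. Glycolysis and hypoxia genes had a median of -0.30 with 9 of 23 lower without overlap, among them ENO1, enolase, at 746 and 892 CPM against 1540.1 and 1219, and HIF1A was higher at 52.9 and 47.5 against 9.75 and 30.4. Of 11 bile acid genes 6, or 54.5% beside 9.52% of all genes, had IR 1 above and IR 2 below both treated libraries. NR1H4, the bile acid receptor FXR, did not have that order and was higher in IR_Pra, at 143 and 127 CPM against 73.7 and 2.13 in IR.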
